A study of Mus musculus with 4 samples.

Results

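The 37 aminoacyl-tRNA synthetase genes examined here were chosen by name, as the rows of the deposited tables whose gene symbol is that of a cytosolic or mitochondrial synthetase. All 37 were listed in both tables, among 15394 genes for unstimulated and 15310 for stimulated cells. The list was drawn up because Lars2 goes opposite ways in the 2 states, so the Lars2 ratios below are a description and support nothing. Symbols ending in 2 (except Tarsl2) were taken as mitochondrial, which gave 16 mitochondrial and 21 cytosolic genes.

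Bone marrow-derived dendritic cells (BMDCs) of C57BL/6 mice aged 8 weeks, either wild type (WT) or GOLPH2-/- (KO, lacking the Golgi membrane protein encoded by Golm1), were profiled by strand-specific mRNA sequencing. Cells of each genotype were taken without stimulation or after 16 h of IFN-gamma priming followed by 4 h of LPS, a component of bacterial cell walls. This gave 4 libraries in 4 groups, with 1 library per group, so no value has a replicate check. The deleted part of the gene, the number of mice behind a culture and its sex are not given in the labels.

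Aminoacyl-tRNA synthetases join each amino acid to its matching tRNA, the step that fixes the genetic code before the ribosome reads it. Cytosolic and mitochondrial protein synthesis use largely separate sets of enzymes, all encoded in the nucleus. In the cytosol several of them sit together in the multisynthetase complex, and some have roles outside translation; Wars, the tryptophanyl enzyme, is a known target of IFN-gamma. Shortage of charged tRNA is sensed by the kinase encoded by Eif2ak4, which raises the transcription factor ATF4, and ATF4 in turn drives many cytosolic synthetase genes.

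Values are log2 ratios of KO over WT from the authors' tables, reduced by the ratio at which the authors' p is closest to 1 (0.19 in unstimulated and −0.036 in stimulated cells as deposited), so that 0 means no difference by the authors' own test. Errors given as ± are counting standard errors derived from the authors' p-values; they cover the sampling of reads and not the difference between cultures. The word called marks genes with an adjusted p (Benjamini-Hochberg, over the whole table, from the authors' p-values) under 0.001. A call compares 2 libraries, not 2 genotypes. The tables hold no values per library, so levels, the response to stimulation and the depth of each library are unknown here. Fewer cells of a type and less RNA per cell cannot be told apart in such bulk samples.

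The targeted gene was checked first: Golm1 was at 23.5% of WT in unstimulated and 25.0% in stimulated KO cells. Of 12 dendritic cell markers 11 were listed, with 6 called higher in unstimulated and 5 in stimulated KO cells, led by Clec10a (0.84 ± 0.11 and 0.86 ± 0.15) and Batf3 (0.51 ± 0.039 and 0.57 ± 0.041), and 0 lower. Of 10 macrophage markers 6 were called higher and 2 lower in unstimulated cells, and 5 and 2 in stimulated cells, led by C1qb (1.0 ± 0.15 and 0.94 ± 0.15) and C1qc (0.74 ± 0.14 and 0.65 ± 0.15). The 2 called lower in each state were Marco (−0.45 ± 0.052 and −0.36 ± 0.051) and Csf1r (−0.27 ± 0.015 and −0.15 ± 0.016). Of 16 stromal and endothelial markers 5 were called higher and 0 lower in unstimulated, and 7 higher and 3 lower in stimulated cells, led by the collagen gene Col3a1 (3.06 ± 0.58 and 6.27 ± 0.40). The 3 called lower in stimulated cells were Pdgfrb (−0.74 ± 0.15), Kdr (−0.41 ± 0.084) and the collagen gene Col5a1 (−0.32 ± 0.071). Of 11 lymphocyte markers 10 were listed, with 1 called higher in each state (Gzma unstimulated, Gzmb stimulated). Of 10 granulocyte and mast cell markers 8 and 5 were matched, but 1 match was the lymphocyte marker Ms4a1 in place of Ms4a2. Lcn2 and Hdc were called lower in each state. The part of these cell markers in the synthetase ratios was not tested.

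Lars2 encodes the leucyl-tRNA synthetase of mitochondria, and was the synthetase gene with the largest ratio in either state. In unstimulated cells the KO library held 40.7% of the WT level, a log2 ratio of −1.30 with a counting error of at most 0.061. In stimulated cells the KO library held 178% of the WT level, a log2 ratio of 0.83 with a counting error of at most 0.032. Lars2 was thus low in the KO library without stimulation and high in the KO library after it, and the stimulated ratio exceeded the unstimulated one by 2.13. The errors are upper limits because −log10 p in the authors' deposited tables ends at 100 for unstimulated and 150 for stimulated cells, and Lars2 stood at the end in each. Among precisely measured genes, those whose error is at most the one 50 reads per library would give, the unstimulated ratio ranked number 4 from the bottom of 10604, and the stimulated ratio number 35 from the top of 10573. Lars2 was the single member marked as differentially expressed in the authors' deposited table of each state, and 0 members were marked there as key genes. The cytosolic counterpart Lars, which charges leucine tRNA outside mitochondria, was at −0.019 ± 0.050 and 0.020 ± 0.052.

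Lars2 lies on chromosome 9 (123366927 to 123462675, GRCm38, plus strand), and 0 other genes of the GENCODE M21 annotation overlap its locus there. Its main transcript has 3894 bases in 21 exons, of which the last 986 are 3′ untranslated. A search of this transcript against 141767 GENCODE transcripts (blastn, E-value limit 1e-05) found stretches shared with 4 other genes, and each lay in the 3′ untranslated region. The closest were 72 bases shared with Gm15564, a gene annotated as antisense, at 98.6% identity and 97 bases shared with AA474408 at 94.8%; neither is listed in the tables. The others were Phka1, with 51 bases at 88.2%, and Ifitm10, with 70 bases at 82.9%. Phka1, a phosphorylase kinase subunit gene, was at 0.15 ± 0.12 and −0.055 ± 0.15, and Ifitm10 at −0.12 ± 0.20 and −0.48 ± 0.12, in unstimulated and stimulated cells. Phka1 in both states and Ifitm10 in unstimulated cells lay within 2 errors of 0, so their order was not read against that of Lars2. Lars itself shared no stretch with Lars2 within that limit. The tables give 1 value per gene, so where in Lars2 the reads fell, and whether reads from RNAs of similar sequence, ribosomal RNA included, were counted there, was not tested.

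Ribosomal and small noncoding RNAs, which largely lack poly(A) tails, were read beside Lars2, together with the long noncoding RNAs Malat1, Neat1 and Snhg1. Snhg1 and the short form of Neat1 carry a tail, so these 2 genes do not bear on poly(A) selection. The ribosomal RNA precursor Rn45s was at 0.0028 ± 0.010 in unstimulated KO cells, where Lars2 was low. Rn45s was called lower in stimulated KO cells, at −0.16 ± 0.0090, where Lars2 was high. Of the 27 RNAs of this list, 7 were in the unstimulated table and 8 in the stimulated table. Malat1 was called lower in both, at −0.095 ± 0.013 and −0.39 ± 0.015. Neat1 was called higher in unstimulated cells, at 0.17 ± 0.010, and was at −0.015 ± 0.011 in stimulated cells; Snhg1 was at −0.044 ± 0.060 and 0.097 ± 0.063. The small RNAs Rmrp, Rpph1, Terc, Rnu11 and Rnu12 carried errors from 0.52 to 1.72, and 0 of them were called. Replication histone genes, whose mRNAs mostly lack a poly(A) tail, had 18 and 17 of 24 in the tables. In each state 1 was called higher: Hist1h1c in unstimulated cells (0.27 ± 0.040) and Hist1h2bc in stimulated cells (0.38 ± 0.062). Whether the mRNAs of these 2 genes carry a tail was not tested, so nothing on poly(A) selection is read from them. Whether library preparation plays a part in the Lars2 ratios was not tested.

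The sequence before the start of Lars2 is shown because its ratio is the largest of the list. The 250 bases before the RefSeq start (GRCm38.p6, chr9:123366677-123366926, plus strand) read 5′ to 3′ as follows, in lower case since they hold none of the motifs searched.
Lars2: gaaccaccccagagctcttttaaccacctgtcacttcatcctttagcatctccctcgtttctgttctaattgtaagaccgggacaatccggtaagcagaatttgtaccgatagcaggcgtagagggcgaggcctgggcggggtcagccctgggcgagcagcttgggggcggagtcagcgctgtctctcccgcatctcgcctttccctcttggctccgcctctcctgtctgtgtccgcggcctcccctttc
The motifs reported here were TGATGNAA, the core of the C/EBP-ATF response element bound by ATF4, and the core of the interferon-stimulated response element, each on both strands.

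**Figure D1:**
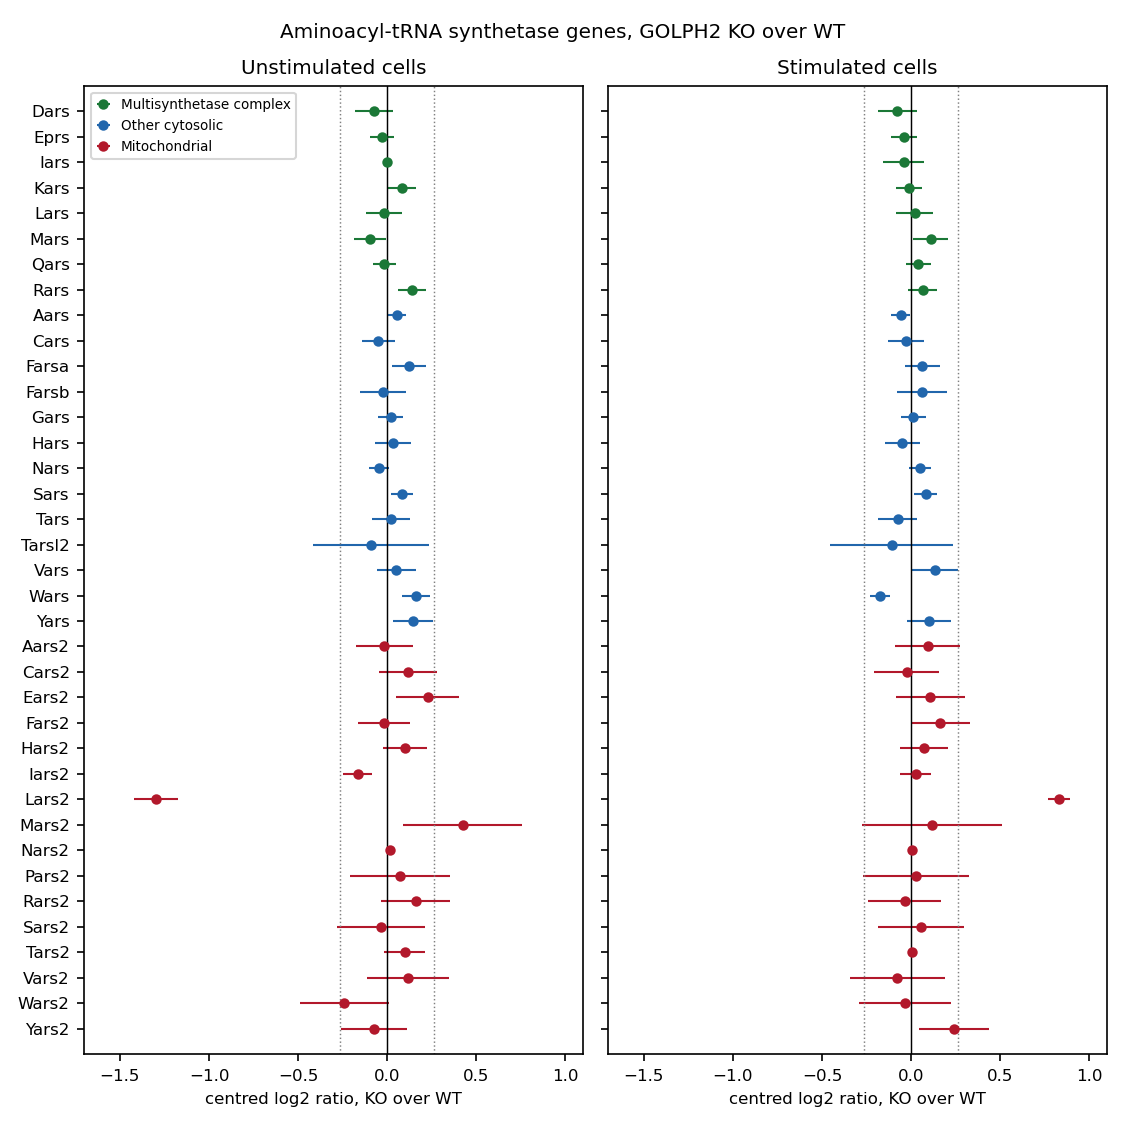
Centred log2 ratio of KO over WT (horizontal axis) of each of the 37 synthetase genes in unstimulated (left) and stimulated cells (right), with 1 library per genotype and state. Bars are 2 counting errors each way (none where the error could not be derived, and an upper limit for Lars2), colours mark the multisynthetase complex, the other cytosolic enzymes and the mitochondrial enzymes, and dotted lines mark 1.2-fold; Lars2 stands apart at −1.30 and 0.83, while of the others Mars2 alone lies past a dotted line.

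Apart from Lars2, the synthetase genes lay within 1.2-fold of equal levels in both pairs of libraries, Mars2 in unstimulated cells excepted. Their 36 ratios ran from −0.24 (Wars2) to 0.43 (Mars2) in unstimulated cells and from −0.17 (Wars) to 0.24 (Yars2) in stimulated cells. The median of all 37 was 0.020 and 0.025, beside a median of 0.0014 and 0.0053 over all genes of the tables. A ratio past 1.2-fold was found for 2 of 37 members in unstimulated cells (Lars2 lower and Mars2 higher) and for Lars2 alone in stimulated cells. Over all genes the share past 1.2-fold was 26% in unstimulated cells (14.8% higher and 11.3% lower) and 28.4% in stimulated cells (13.5% higher and 14.9% lower). The 35 members with an error in each state were all precisely measured in the sense above, and among such genes of the tables the share was 11.9% and 14.1%. Past 1.5-fold stood Lars2 alone in either state, beside 13% and 13.7% of all genes. By the authors' p-values the unstimulated comparison called 3 of 37 members (8.11%), with 1 higher and 2 lower, where 8.96% of all genes were called (4.7% higher and 4.27% lower). In stimulated cells 2 of 37 (5.41%) were called, 1 higher and 1 lower, where 11.9% of all genes were (5.36% higher and 6.54% lower). Because Lars2 in these comparisons chose the list, nothing is read from these shares. At an unadjusted p under 0.05, 11 members and 27.2% of all genes passed in unstimulated cells, and 8 members and 30.7% of all genes in stimulated cells.

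The 8 enzymes of the multisynthetase complex, which gathers them around scaffold proteins, had medians of −0.017 (unstimulated) and 0.0050 (stimulated), with 0 called in either state. Rars, the arginyl enzyme, was the highest in unstimulated cells at 0.14 ± 0.040, and was at 0.066 ± 0.041 in stimulated cells. Mars, the methionyl enzyme that also serves initiator tRNA, was the lowest in unstimulated cells at −0.095 ± 0.045 and the highest in stimulated cells at 0.11 ± 0.050. Kars, which makes both the cytosolic and the mitochondrial lysyl enzyme, was at 0.081 ± 0.041 and −0.010 ± 0.037. Eprs, which carries the glutamyl and prolyl activities in 1 chain, was at −0.029 ± 0.033 and −0.041 ± 0.036. The glutaminyl enzyme gene Qars was at −0.015 ± 0.033 and 0.040 ± 0.035, and the aspartyl enzyme gene Dars at −0.074 ± 0.053 and −0.077 ± 0.054. Iars, the isoleucyl enzyme, was at −0.0017 and −0.043 ± 0.058; its first error could not be derived because the p is too close to 1. Each of these ratios was within 1.2-fold of equal levels.

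Scaffold genes of the same complex were no further apart than the enzymes, with 1 exception in size. Aimp1 was at 0.056 ± 0.053 and 0.059 ± 0.056, and Aimp2 at 0.022 ± 0.085 and −0.077 ± 0.087. Eef1e1, which encodes the third scaffold protein, was at 0.30 ± 0.087 and 0.27 ± 0.085, past 1.2-fold in both states but not called in either.

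Wars was the one cytosolic synthetase gene to be called, and it was called in opposite directions. It encodes tryptophanyl-tRNA synthetase and lies on chromosome 12 (108860030 to 108894175, GRCm38). In unstimulated cells the KO library held 112% of the WT level (0.16 ± 0.040, called higher). In stimulated cells it held 88.7% (−0.17 ± 0.028, called lower), so the ratio moved by −0.34 ± 0.048 from one state to the other. That order is the reverse of Lars2 and the change is smaller. IFN-gamma target genes were read beside it: of 19 listed, 15 were called lower and 2 higher in stimulated KO cells, with a median of −0.27. The largest were Ido1, the tryptophan-degrading enzyme, at −0.99 ± 0.15, the chemokine gene Cxcl10 at −0.63 ± 0.035 and the GTPase gene Igtp at −0.62 ± 0.028. In unstimulated cells 4 of the 19 were called higher and 2 lower, with a median of 0.014, led by the transcription factor gene Irf8 at 0.32 ± 0.017 and Nos2, the inducible nitric oxide synthase, at −0.26 with an error of at most 0.012. The list and Wars were chosen with these results known, so their common direction is a description.

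The other 12 cytosolic genes lay between −0.091 and 0.14 in unstimulated and between −0.11 and 0.13 in stimulated cells, with 0 called. At the upper end were Yars, the tyrosyl enzyme (0.14 ± 0.056 and 0.099 ± 0.062), and Farsa, the catalytic subunit of the phenylalanyl enzyme (0.12 ± 0.048 and 0.063 ± 0.050). Its partner subunit Farsb was at −0.022 ± 0.064 and 0.060 ± 0.071. Sars, the seryl enzyme, was at 0.084 ± 0.030 and 0.083 ± 0.032, nearly the same value in separate pairs of libraries. Vars, the valyl enzyme, was at 0.051 ± 0.055 and 0.13 ± 0.064. These 5 genes were above 0 or within their error of it in both states.

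Aars, the alanyl enzyme, had the smallest error of the list and was at 0.053 ± 0.026 and −0.057 ± 0.027. Nars, the asparaginyl enzyme, was at −0.046 ± 0.028 and 0.050 ± 0.031. Gars, which makes the glycyl enzyme of both compartments, was at 0.020 ± 0.034 and 0.013 ± 0.036. Hars, the histidyl enzyme, was at 0.034 ± 0.050 and −0.050 ± 0.050, and Cars, the cysteinyl enzyme, at −0.050 ± 0.046 and −0.029 ± 0.050. Tars, the threonyl enzyme, was at 0.024 ± 0.054 and −0.076 ± 0.055. Tarsl2, a second threonyl enzyme, was at −0.091 ± 0.16 and −0.11 ± 0.17, the widest errors among the cytosolic genes. None of these 7 genes was called in either state.

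The 15 mitochondrial genes other than Lars2 had medians of 0.074 (unstimulated) and 0.028 (stimulated), with 1 and 0 called. Iars2, the isoleucyl enzyme of mitochondria (chromosome 1, 185286642 to 185329419, GRCm38), was called lower in unstimulated KO cells at −0.17 ± 0.040, or 89.2% of WT. In stimulated cells it was at 0.025 ± 0.043. The direction of Iars2 rests on the centring, since the authors' deposited table gives 0.026 for it in unstimulated cells. Mars2, the methionyl enzyme, had the highest unstimulated ratio (0.43 ± 0.17) and was at 0.12 ± 0.20 after stimulation, with the widest errors among the mitochondrial genes. Ears2, the glutamyl enzyme, was at 0.23 ± 0.087 and 0.11 ± 0.097. Wars2, the tryptophanyl enzyme, was at −0.24 ± 0.13 and −0.034 ± 0.13. Yars2, the tyrosyl enzyme, was at −0.072 ± 0.093 in unstimulated cells and had the highest ratio after Lars2 in stimulated cells, at 0.24 ± 0.098. Apart from Iars2, none of these passed the threshold for a call.

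The remaining mitochondrial genes stayed within 1.2-fold in both states. The arginyl enzyme gene Rars2 was at 0.16 ± 0.096 and −0.036 ± 0.10, and the valyl enzyme gene Vars2 at 0.12 ± 0.12 and −0.076 ± 0.13. The cysteinyl enzyme gene Cars2 was at 0.12 ± 0.082 and −0.025 ± 0.091. Higher after stimulation than before was Fars2, the phenylalanyl enzyme, at −0.017 ± 0.074 and 0.16 ± 0.082, a difference within 2 counting errors. The histidyl enzyme gene Hars2 was at 0.10 ± 0.063 and 0.071 ± 0.068, the alanyl gene Aars2 at −0.016 ± 0.080 and 0.093 ± 0.091, and the seryl gene Sars2 at −0.033 ± 0.12 and 0.056 ± 0.12. Pars2, the prolyl enzyme, was at 0.074 ± 0.14 and 0.028 ± 0.15, and Tars2, the threonyl enzyme, at 0.098 ± 0.057 and 0.0044. Nars2, the asparaginyl enzyme, was at 0.015 and 0.0059, with no error derived in either state.

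The mitochondrial genes were measured less precisely than the cytosolic ones, with a median counting error of 0.087 against 0.046 in unstimulated and 0.098 against 0.050 in stimulated cells. Enzymes are also grouped by the fold of their catalytic domain, into class I and class II. Leaving out Eprs, which holds both kinds, the 18 class I genes had a median of 0.025 and 0.033 and the 18 class II genes one of 0.022 and 0.021. The genes called, Lars2, Wars and Iars2, are class I, and 0 class II genes were called in either state. That is 3 of 18 class I genes (16.7%) in unstimulated and 2 (11.1%) in stimulated cells. Over all genes 8.96% and 11.9% were called. Because Lars2 chose the list, nothing is read from these counts. A difference between the classes was not tested.

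The states were compared by subtracting the unstimulated from the stimulated ratio, which come from separate pairs of libraries. With 1 library per group this difference leaves no replicate and was not tested. Without Lars2 the differences ran from −0.34 (Wars) to 0.31 (Yars2), with a median of −0.015. Of the 33 members with an error in both states, 6 (18.2%) differed by more than 2 counting errors: Yars2, Mars (0.20 ± 0.068), Iars2 (0.19 ± 0.059) and Nars (0.097 ± 0.042) upward, and Aars (−0.11 ± 0.037) and Wars downward. Over all genes with an error in both states the share was 19.2%, and 22.8% among precisely measured ones. Nothing is read from this share either, for the same reason. The ratio changed sign between states for 18 of the 36. This count rests on the centring, since in unstimulated cells 20 of the 36 were above 0 as centred and 35 as deposited. It was not made over all genes, so nothing is read from it.

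**Figure D2:**
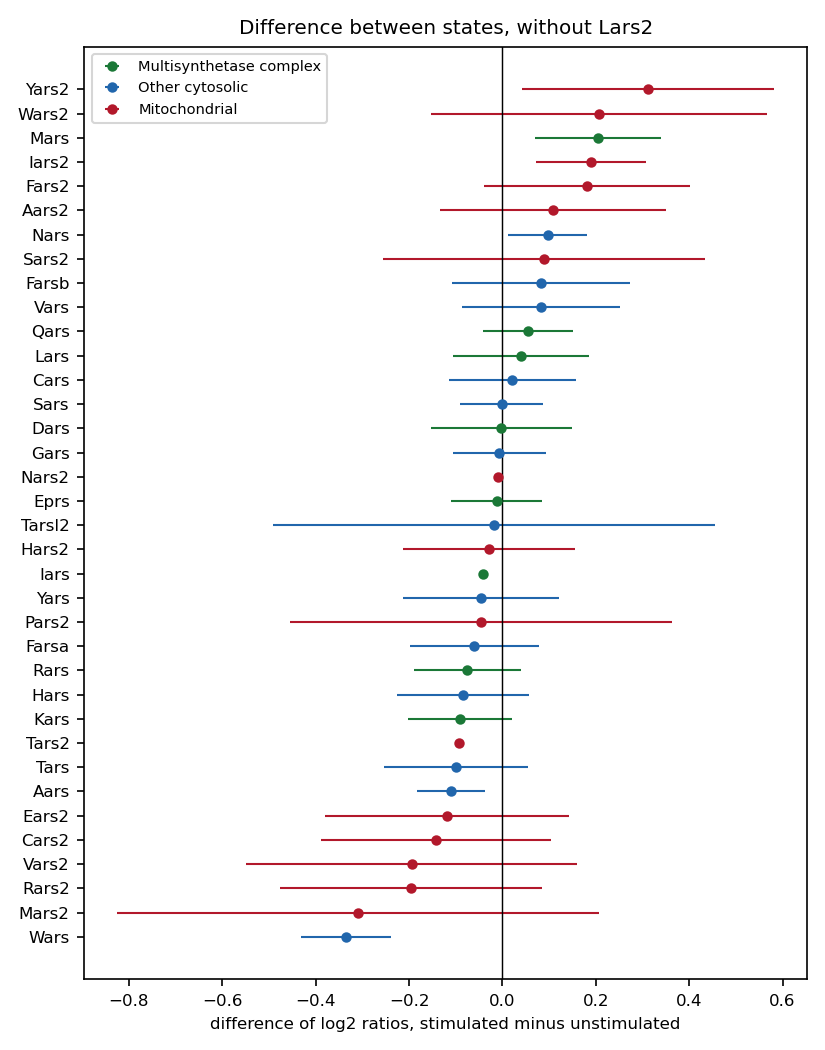
Stimulated minus unstimulated log2 ratio of KO over WT (horizontal axis) of the 36 synthetase genes other than Lars2, in order of size. Bars are 2 counting errors each way, and genes drawn without bars had no error in at least 1 state; Wars lies lowest at −0.34 and Yars2 highest at 0.31, and most bars cross 0.

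Across the 14823 genes in both tables, 41 (0.277%) were called in opposite directions in the 2 states. Of these, 13 were lower in unstimulated and higher in stimulated KO cells, as Lars2 was, and 28 went the other way, as Wars did. Lars2 was the single gene of the first kind past 1.2-fold in both states. Next came Scand1, which encodes a SCAN domain protein, at −0.49 ± 0.055 and 0.26 ± 0.054, just under that fold and named after its values were seen. Of the second kind, 5 were past 1.2-fold in both: Iigp1 (0.49 ± 0.10 and −0.52 ± 0.029), Phf11a (0.49 ± 0.10 and −0.40 ± 0.074), Ifit2 (0.33 ± 0.072 and −1.17 ± 0.045), Mx1 (0.32 ± 0.049 and −0.64 ± 0.029) and Pydc4 (0.42 ± 0.10 and −0.28 ± 0.072). Iigp1, Ifit2 and Mx1 are interferon-induced genes. Reads of interferon-induced gene families can be split between near-identical copies, and whether this affects these values was not tested.

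**Figure D3:**
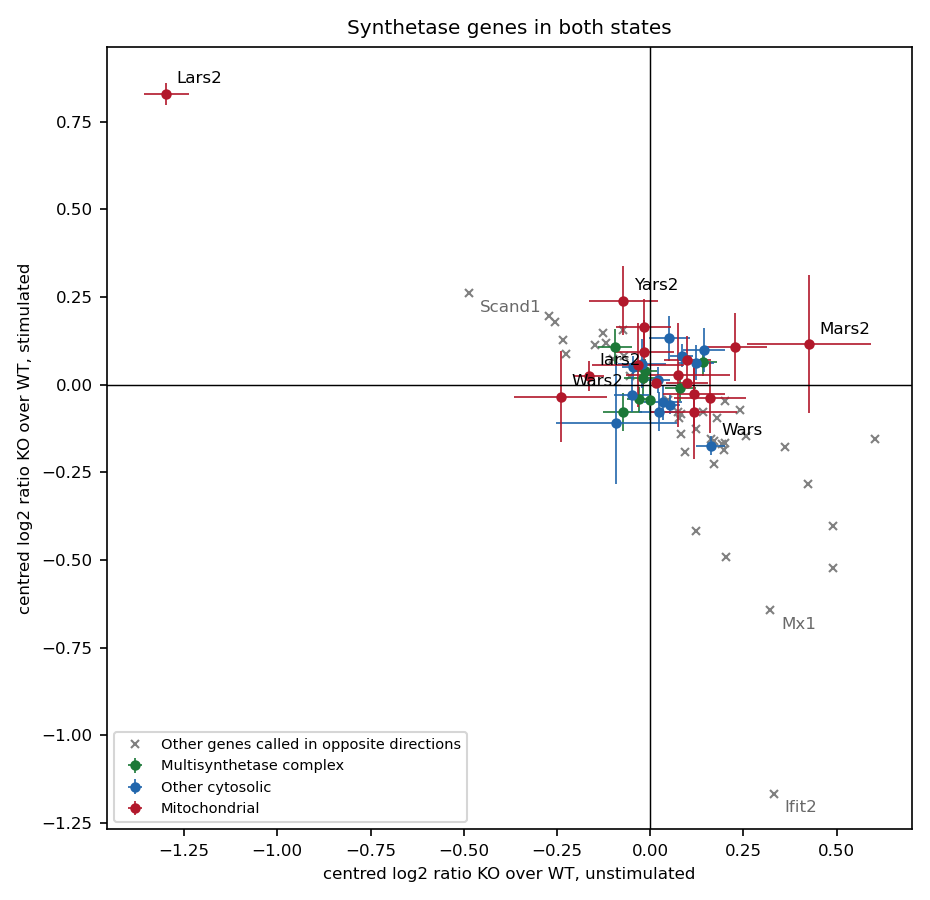
Centred log2 ratio of KO over WT in unstimulated (horizontal axis) and stimulated cells (vertical axis) for the 37 synthetase genes (circles, with 1 counting error each way) and the other genes called in opposite directions (crosses). Lars2 stands alone at the upper left (−1.30 and 0.83), Wars lies at the lower right among the crosses (0.16 and −0.17), and the other synthetase genes lie around 0.

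Genes that work beside the synthetases were read from fixed lists. Genes for handling tRNA (trimming, modifying, proofreading, export, completing charging in mitochondria) numbered 22, all listed, with 0 called in either state and medians of 0.017 and 0.082. Factors of mitochondrial translation had 36 of 38 in the tables, with medians of −0.0025 and 0.033, and 1 called higher in unstimulated cells, the ribosomal protein gene Mrpl12 (0.21 ± 0.046). In stimulated cells 0 were called, and Mrpl12 was at 0.18 ± 0.053. Mitochondrial translation genes thus showed no ratio of the size of Lars2 in either state, with a range of −0.23 to 0.21 and −0.17 to 0.24. Of 8 cytosolic elongation and termination genes, the kinase gene Eef2k included, 3 were called higher in unstimulated and 5 in stimulated KO cells, and 0 lower. Eef1a1, which carries charged tRNA to the ribosome, was at 0.11 ± 0.0096 and 0.13 ± 0.011, and Eef1b2, its exchange factor, at 0.092 ± 0.022 and 0.16 ± 0.024, all 4 called higher and within 1.2-fold. Eef1g was called higher in both states, at 0.11 ± 0.023 and 0.13 ± 0.025, and Eef1d in stimulated cells, at 0.16 ± 0.042, after 0.11 ± 0.040 without a call in unstimulated cells; both encode further subunits of the exchange factor. The fifth gene called higher in stimulated cells was Eef2, the translocation factor, at 0.044 ± 0.0087.

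The amino acid response, in which ATF4 acts, went both ways. Of 33 listed genes 5 were called higher and 5 lower in unstimulated cells, with a median of −0.0011, and 4 higher and 3 lower in stimulated cells, with a median of −0.023. Atf4 itself was at −0.018 ± 0.015 and −0.037 ± 0.015. The largest called in unstimulated cells were the glycine transporter gene Slc6a9 (−0.89 ± 0.21), the transaminase gene Gpt2 (0.53 ± 0.11) and the amino acid transporter genes Slc7a5 (0.28 ± 0.050) and Slc38a2 (−0.25 ± 0.040). In stimulated cells they were Stc2, which encodes a stanniocalcin (−0.48 ± 0.059), Slc7a5 (0.39 ± 0.066), Ddit4, an inhibitor of mTORC1 (−0.35 ± 0.033), and Atf5 (0.22 ± 0.022). Asns, the asparagine synthetase gene and a standard ATF4 target, was at −0.24 ± 0.085 and −0.058 ± 0.087 and was not called. Of 7 kinases and regulators of eIF2-alpha, 1 was called lower in unstimulated cells (Impact, −0.12 ± 0.028). In stimulated cells 2 were called lower, the interferon-induced kinase gene Eif2ak2 (−0.60 ± 0.038) and the phosphatase subunit gene Ppp1r15b (−0.24 ± 0.024). Eif2ak4, the sensor of uncharged tRNA, was at −0.087 ± 0.050 and −0.19 ± 0.056, not called.

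**Figure D4:**
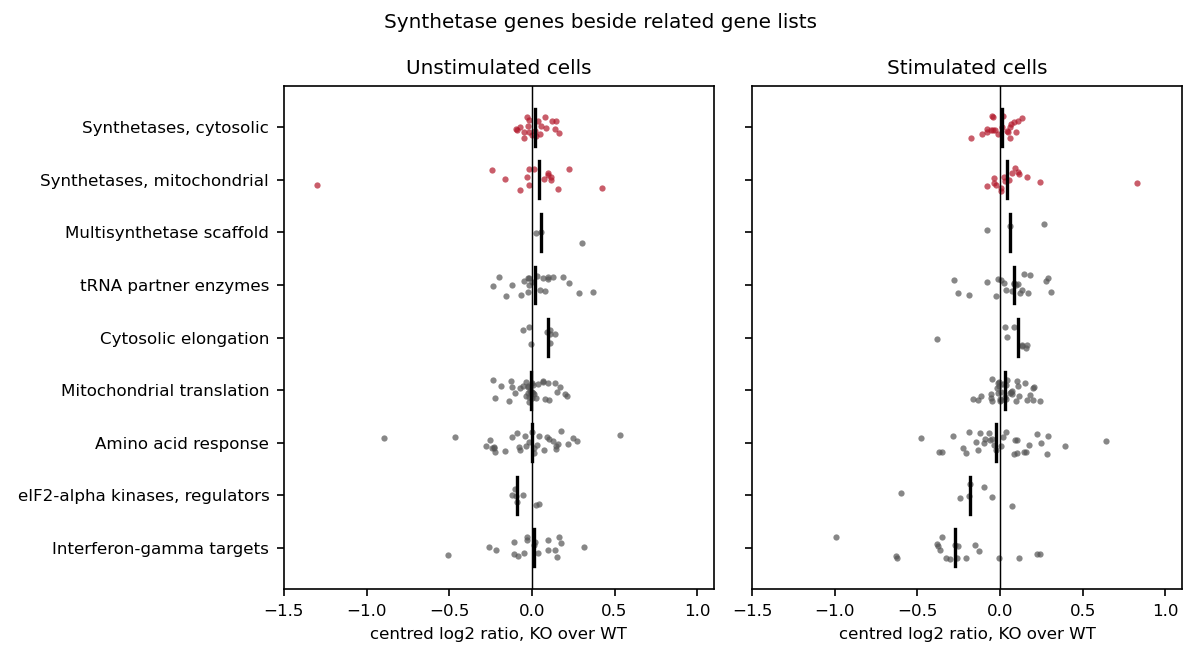
Centred log2 ratio of KO over WT (horizontal axis) of the synthetase genes (red) and of related gene lists (grey), with 1 point per gene, in unstimulated (left) and stimulated cells (right). Vertical bars mark list medians and the vertical scatter within a row has no meaning; both synthetase medians lie within 0.05 of 0 in each state, Lars2 is the outlying red point, and of the lists plotted the interferon-gamma targets have the lowest median in stimulated cells, −0.27.

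Promoters were looked up for the members in the RefSeq table (GRCm38.p6), which gave 27 of 37; those of Cars, Hars, Hars2, Lars, Mars, Nars, Pars2, Rars, Vars and Wars were not matched. Within 250 bases before and 50 after the start, TGATGNAA was found in 5 of 27 members (18.5%) and in 4.06% of 27025 promoters. These were Aars, Gars, Iars, Tars and Yars, all cytosolic. The interferon-stimulated response element was found in 1 of 27 (Qars) against 3.49% of all promoters. In Aars, Gars and Tars a TGATGNAA match lay before the start used, with 1 promoter taken per gene. For Aars that start lies within the RefSeq span of the gene (chromosome 8, 111027778 to 111055569, GRCm38). These 3 stretches are shown because they carry the ATF4 site letters beside flat expression ratios. They read 5′ to 3′ on the gene's strand, with the match, which is the reverse complement of the motif, in capitals.
Aars (chr8:111033704-111033763, plus strand): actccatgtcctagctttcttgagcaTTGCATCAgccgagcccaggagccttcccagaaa
Gars (chr6:55037945-55038000, plus strand): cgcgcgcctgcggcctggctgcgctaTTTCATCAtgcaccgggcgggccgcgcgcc
Tars (chr15:11399659-11399699, minus strand): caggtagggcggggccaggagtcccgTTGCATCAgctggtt
Aars (0.053 and −0.057), Gars (0.020 and 0.013) and Tars (0.024 and −0.076) were not called in either state. A match is a description of the letters, not of binding.

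Yars2, with the largest stimulated ratio after Lars2, held none of the motifs. Its 250 bases before the start (chr16:16302715-16302964, plus strand) read as follows.
Yars2: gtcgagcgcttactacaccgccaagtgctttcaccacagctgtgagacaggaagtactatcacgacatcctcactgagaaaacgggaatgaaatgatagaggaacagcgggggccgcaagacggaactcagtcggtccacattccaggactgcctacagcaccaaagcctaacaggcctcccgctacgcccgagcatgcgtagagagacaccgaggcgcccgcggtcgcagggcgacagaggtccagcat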

How the data were processed

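Strand-specific TruSeq mRNA libraries were made from column-purified RNA, per the labels' protocols. The submitters' processing notes name mm10, HTSeq 0.6.0 and FastQC 0.10.1 and the sources used here give no aligner, annotation, scaling or test. Groups came from the sample titles. Per the file headers, the authors deposited a log2 fold change of KO over WT and a p-value per gene and state; the second column holds −log10 p as deposited by the authors, judged from its values. Among the 1486 and 1496 genes with a counting error above 1, the deposited fold was a ratio of whole numbers (up to 100 and 10, relative tolerance 1e-06) for 99.9% and 100%, so the deposited folds appear not to be scaled for depth.

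Each ratio was therefore reduced by the median ratio of the 50 genes with the highest p (ratios shared by 3 or more genes left out). The counting error is the centred ratio over the two-sided normal deviate belonging to its p, and was not given where p was above 0.9. Adjusted p-values were computed over each whole table (statsmodels 0.14.6). The steps were tested on simulated data. The design was written for size rules and the authors' p-values, and no test between conditions was made. Genes named were all members, the targeted gene, all listed members of the scaffold and RNA lists, and genes called in opposite directions past 1.2-fold. In other lists they were the called genes of largest absolute ratio (up to 4 per state). The macrophage and stromal markers called lower, and a few background genes (Asns, Atf4, Eif2ak4, Scand1), were named after their values were seen. Some items of the lists and motifs are not reported here. The Lars2 transcript was compared with GENCODE transcripts and not with the Rn45s sequence. Members, groups and lists were chosen with earlier results of these data known. Promoters came from RefSeq (GRCm38.p6), transcripts from GENCODE M21 (blastn 2.17.0). Alternatives were the ratios as deposited, centring on the median gene, other thresholds, a precision limit and leaving out Lars2.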

Additional observations from a re-analysis of the deposited data

Results flagged for a closer look

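Among the synthetase genes, 2 were called in opposite directions in unstimulated and stimulated cells. For Lars2 the stimulated ratio exceeded the unstimulated one by 2.13 on the log2 scale. For Wars the stimulated ratio minus the unstimulated one was −0.34. With 1 library per group neither difference was tested.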

How the results depend on the processing

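Of 49 values recomputed under other settings, 35 were counted as unchanged. Counts qualified within 1.5-fold of the main one, and medians and Lars2 ratios if they moved by less than a counting error. For Wars and Iars2 the direction and the call had to hold. The direction of counts and medians was not part of this rule. With the ratios as deposited, the stimulated cytosolic median went from 0.013 to −0.023. Unstimulated calls went from 1 higher and 2 lower to 2 higher and 1 lower. With the ratios as deposited, which shifts the median gene of unstimulated cells to 0.19, 15 members were past 1.2-fold there rather than 2, the cytosolic and mitochondrial medians were 0.21 and 0.24, and Lars2 was at −1.11 in unstimulated and 0.79 in stimulated cells; the call of Iars2 reversed to 0.026. These moves follow from the shift itself. At 1.5-fold 1 member was past the fold in unstimulated cells. At an adjusted p under 0.05, 5 members were called in unstimulated cells rather than 3, and with Holm adjustment 1, since Wars and Iars2 were no longer called. Without Lars2, 1 member was past 1.2-fold in unstimulated and 0 in stimulated cells. The members called were then 2 rather than 3 in unstimulated and 1 rather than 2 in stimulated cells. Centring on the median gene moved none of the values tried by that rule. The precision limit (members with no error kept) left out no member. Its 8 values could therefore not change, and they are among the 35. No paired analysis was possible because each group has 1 library. Levels per library and the spread between cultures are not in the tables, so the counting errors leave out that spread, and the errors of Lars2 are limited by the end of the deposited p-values.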
